A study of Mus musculus with 9 samples.

Results

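Type I interferon-stimulated genes were followed in fibrotic mouse liver through 38 genes, taken by their symbols from the gene table: RNA-binding IFIT proteins, OAS enzymes, Mx proteins, viral RNA sensors, ISG15 and its partners, and the factors that transcribe them. All 38 were among the 24532 genes of the table, and all 38 were among the 14731 genes with enough reads to be tested. The 9 libraries were made from poly(A) RNA of whole liver of wild-type C57BL/6 mice. Every mouse had received the liver toxin thioacetamide (TAA), injected into the peritoneum at a rising dose over 10 weeks, so livers without TAA were not compared here. The control mice received saline (replicates 12, 13 and 14, called TAA below). The treated mice received recombinant human cytoglobin (rhCYGB), a heme globin, into the tail vein at 2 mg/kg, during the last 2 weeks of TAA (replicates 17, 18 and 19) or the last 5 weeks (replicates 23, 27 and 28), and were killed 2 days after the last injection. The labels give no age and do not say that each library came from its own mouse. The p-values then cover only the spread among these libraries, which may be technical in part.

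Type I interferons bind the receptor IFNAR1 and IFNAR2, which acts through the kinases JAK1 and TYK2. Signalling assembles ISGF3, a complex that includes STAT2 and IRF9 and binds the interferon-stimulated response element in target promoters. The targets limit viral RNA, cut it or sense it, and many sensors and IRF7 feed back on interferon production. In liver, hepatocytes, macrophages and endothelial cells can all express them.

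The response element was looked for as the letters GAAA, any 2 bases (NN) and GAAA again, on both strands, in the window from 250 bases before to 50 bases after each gene's start (RefSeq, GRCm38.p6, the same assembly as mm10). A window was held for 27 of the 38 genes, and 14 of those 27 (51.9%) contained a match, against 1079 of 27025 genes with a window (3.99%) and 3.85% of the tested genes with a window. Matches may overlap each other. The stretches below are shown because Isg15, Ifit1, Ifit3 and Ifit3b had copies of the letters and lower values in treated liver, Bst2 had copies and higher values, and Oasl1 had the lowest adjusted p after 5 weeks with no match in its window. Capitals mark the matched letters, read in the direction of transcription, so a match to the other strand appears as TTTC, any 2 bases and TTTC.

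Isg15 (chr4:156200859-156200928, minus strand, upstream of the start): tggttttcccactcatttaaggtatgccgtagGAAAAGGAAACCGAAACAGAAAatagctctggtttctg
Ifit1 (chr19:34640765-34640834, plus strand, upstream of the start): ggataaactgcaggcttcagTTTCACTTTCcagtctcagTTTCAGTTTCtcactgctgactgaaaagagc
Ifit3 (chr19:34583353-34583432, plus strand, upstream of the start): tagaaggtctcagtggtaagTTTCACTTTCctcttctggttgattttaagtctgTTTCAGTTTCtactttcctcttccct
Bst2 (chr8:71537563-71537632, minus strand, upstream of the start): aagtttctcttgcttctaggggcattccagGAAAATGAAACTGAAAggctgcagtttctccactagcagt
Oasl1 (chr5:114923120-114923239, plus strand, upstream of the start): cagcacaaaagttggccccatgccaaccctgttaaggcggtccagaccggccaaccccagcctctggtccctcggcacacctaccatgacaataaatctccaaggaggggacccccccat

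Isg15 carried 3 matches that run into each other, and Ifit1, Ifit3 and Bst2 carried 2 each. Ifit3b has the same 80 bases as Ifit3 at chr19:34607749-34607828. The other genes with a match were Oas1a, Oas1g, Oas3, Rsad2, Stat2, Ifih1, Ddx58, Trim30a and Eif2ak2. In Ifih1, Ddx58 and Eif2ak2 the match lay after the start. Among the 14 genes with a match the median log2 change was -0.71 after 2 weeks and -0.53 after 5 weeks of rhCYGB. Among the 13 genes with a window and no match the medians were -0.32 and -0.33, and among the 11 genes without a window they were -0.35 and -0.59. These medians are a description with no test.

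Many of the genes sit beside each other in the genome. With gaps of at most 200 kb, 19 of the 38 fell into 7 groups of neighbours. Ifit2, Ifit3, Ifit3b and Ifit1 lie within 99.3 kb of chromosome 19 (34550694 to 34650009, mm10). Oas2, Oas3, Oas1g and Oas1a lie within 177.2 kb of chromosome 5, and Oasl1 and Oasl2 within 41.0 kb of the same chromosome. Some members cannot be separated well by short reads. Ifit3 and Ifit3b transcripts are 98.0% identical over 1697 aligned bases, and Oas1a and Oas1g are 97.5% identical over 1860. The loci of Ifi27 and Ifi27l2a overlap by 6057 bases and those of Parp9 and Dtx3l by 558 bases, and the sources used here do not say whether counting used strand. For Ifi27l2a only the 665-base transcript overlaps Ifi27, and it held 0.504% to 1.87% of the gene's estimated reads. Its 464-base transcript, with the rest, lies outside Ifi27. Values of these genes as single genes are therefore uncertain, though for Ifi27l2a the overlap concerns few of its estimated reads.

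Library totals ran from 55655727 to 87289945 estimated reads. Levels are given as CPM, a gene's count as a share of its library's total scaled by TMM, and changes as log2 ratios from edgeR's quasi-likelihood test, with p-values adjusted over all 14731 genes. A gene is called at an adjusted p under 0.05. The first principal component held 32.3% of the variance and set replicate 23 (score 78.8) apart from replicates 17 and 18 (scores -39.4 and -44.1). Results were therefore also computed without these 3 libraries. Both treated groups share the TAA libraries as their control, so the counts for 2 and 5 weeks are not independent of each other.

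Levels of different genes are compared in FPKM, the authors' reads per length and depth. In the TAA livers Bst2 was the highest of the 38, at 222 ± 16.8 FPKM (SD, n = 3). Ifi27 (95.2 ± 3.25), Ifi27l2a (73.6 ± 9.80) and Lgals3bp (60.2 ± 1.63) came next, followed by Irf7 (34.4 ± 1.44) and Ifi35 (31.0 ± 1.95). Oasl1 stood at 24.2 ± 3.72 FPKM and Isg15 at 20.7 ± 0.305. In mid-order, Zbp1 (11.2 ± 0.273) and Ifit3 (11.2 ± 1.27) did not differ beyond their spread. The lower end was held by Rsad2 (1.62 ± 0.322), Ifi44 (1.34 ± 0.368) and Oas3 (0.766 ± 0.219), of which the first 2 do not differ beyond their spread.

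After 2 weeks of rhCYGB most interferon-stimulated genes had lower levels than in TAA liver, but the test called only Bst2, and Bst2 rose. The log2 change was below 0 for 33 of 38 genes, against 52.9% of all tested genes, and ran from -1.15 (Mx1) to 0.72 (Bst2), with a median of -0.44 where all genes had a median of -0.03. Bst2 was the 1 of 38 called, beside 3.31% of all tested genes (1.98% higher, 1.34% lower). In 21 of the 38 (55.3%) all 3 treated libraries lay below all 3 TAA libraries, beside 16.3% of all genes. Only Ifi35 and Bst2 lay above without overlap, beside 17.3%. At an unadjusted p under 0.05, 18 genes (47.4%) were lower, beside 10.5% of all genes, and 1 was higher, beside 12.9%. Fewer cells expressing these genes and less RNA per cell cannot be told apart in whole liver.

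After 5 weeks most of the genes again had lower levels than in TAA liver, and the test called Oasl1 alone. The log2 change was again below 0 for 33 of 38 genes, against 48.6% of all genes, and ran from -1.18 (Oasl1) to 0.27 (Bst2), with a median of -0.53 where all genes had 0.01. Oasl1 was the 1 of 38 called, and it fell, beside 1.29% of all genes called in either direction (0.604% lower, 0.686% higher). The 3 libraries lay below all TAA libraries for 21 genes (55.3%), beside 13.4% of all genes, and above them for none, beside 11.6%. At an unadjusted p under 0.05, 14 genes (36.8%) were lower, beside 9.62%, and none was higher, beside 9.59%. DESeq2 called 10 of the 38 after 2 weeks (9 of them lower), 26.3% beside 11.6% of all genes called by DESeq2. After 5 weeks it called 6 (all lower), 15.8% beside 8.06%.

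**Figure D1:**
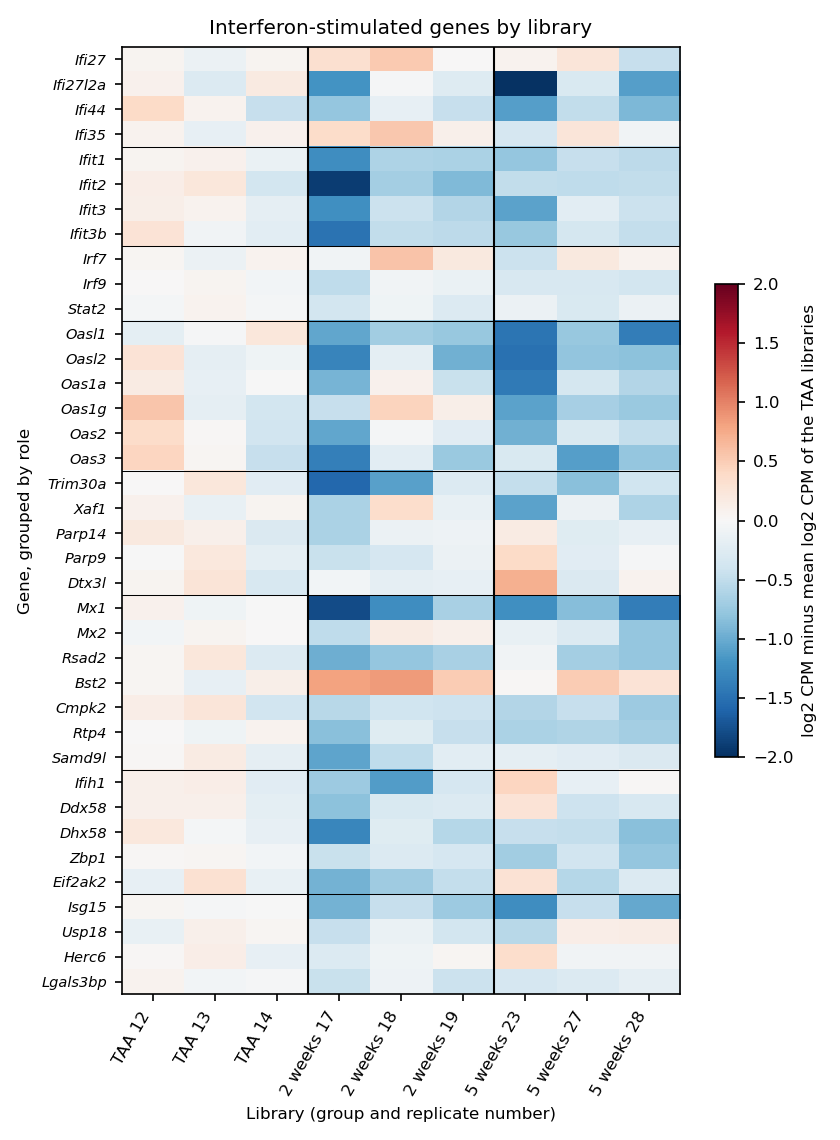
Each cell is a gene's log2 CPM in a library minus its mean log2 CPM in the 3 TAA libraries (colour scale from -2 to 2), with genes in rows grouped by role and libraries in columns by group. Blue prevails in the 6 rhCYGB columns and replicate 17 is the lowest library for 20 of the 38 genes, while the Bst2 row is red after 2 weeks.

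**Figure D2:**
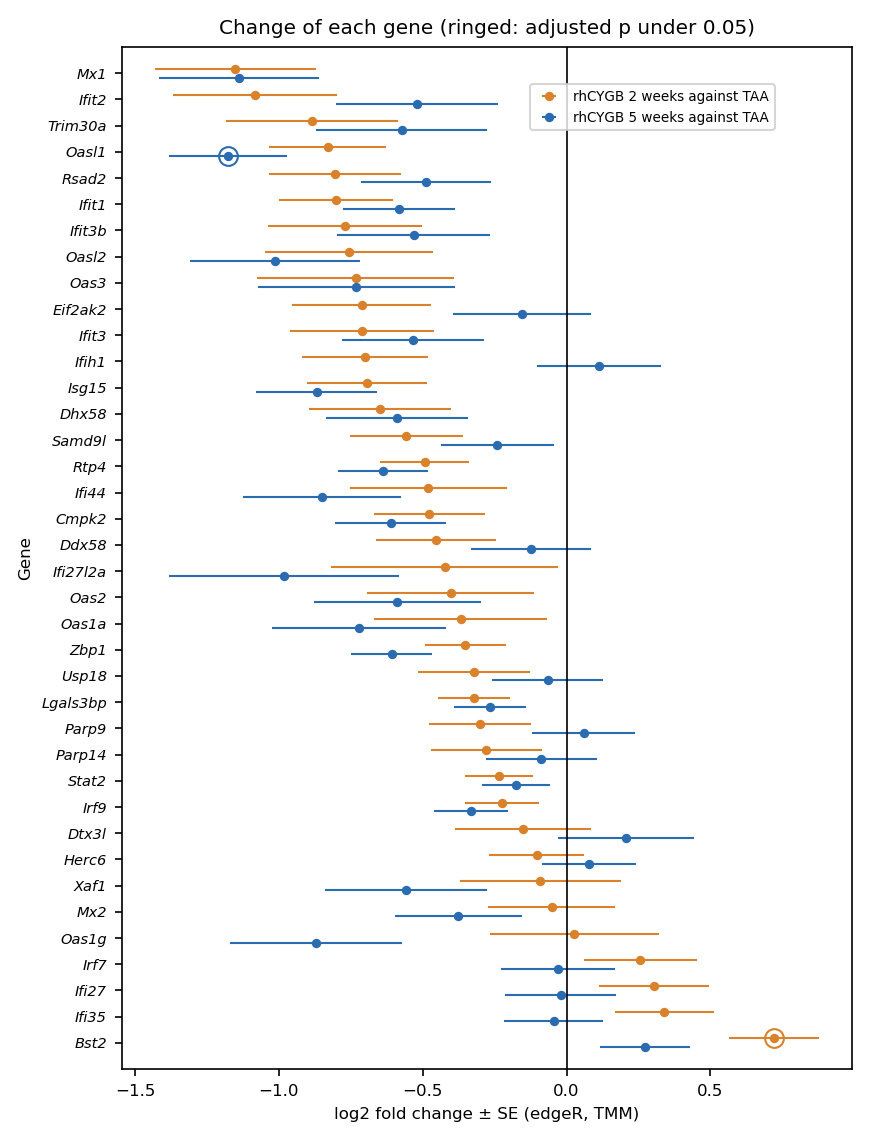
The log2 fold change against TAA (x axis) with its standard error as a bar is drawn for each of the 38 genes (y axis), in orange for 2 weeks and blue for 5 weeks of rhCYGB. Most points lie left of 0, and rings mark the called genes, Bst2 (0.72, 2 weeks) and Oasl1 (-1.18, 5 weeks).

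The interferon genes themselves gave almost no reads. Of 21 listed ligand genes 15 had 0 reads in all 9 libraries, Ifnb1 among them. The 14 interferon alpha type genes had 10 reads in total, in Ifna5, Ifna7 and Ifnab. A count of 0 allows up to 3 reads, which is 0.0539 CPM in the shallowest library and 0.0344 CPM in the deepest, for counting error only. Ifng, the type II interferon, had 4 reads, all in replicate 28. Ifnk was the only ligand gene tested, with 1.25 ± 0.115 CPM in TAA, 0.642 ± 0.341 after 2 weeks and 0.822 ± 0.351 after 5 weeks. It lay below TAA without overlap at both times (log2 changes -0.93 and -0.60), as did 16.3% and 13.4% of all genes. Ifnk was not called (adjusted p = 0.238 and 0.494, edgeR).

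Of the receptor and its JAK-STAT arm, 11 genes were tested and edgeR called none against TAA. At an unadjusted p under 0.05, 1 of 11 was higher after 2 weeks, beside 12.9% of all genes, and none passed after 5 weeks. That gene was Ifnar2, at 58.9, 55 and 62.4 CPM in TAA and 92.0, 86.9 and 73.0 after 2 weeks, a log2 change of 0.51 ± 0.14 (adjusted p = 0.0662). Its groups did not overlap after 2 weeks. The other receptor chain, Ifnar1, had log2 changes of -0.12 and 0.03, Jak1 -0.17 and 0.15, and Tyk2 0.04 and 0.02.

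The transcription factors among the members showed small differences. Stat2, which encodes a subunit of ISGF3, was at 69.8, 75.1 and 69.4 CPM in TAA, 55.2, 67.5 and 59.2 after 2 weeks, and 65.9, 58.0 and 65.8 after 5 weeks. Irf9, the DNA-binding subunit, was at 32.7, 33.6 and 31.2 CPM in TAA, 22.9, 30.8 and 29.7 after 2 weeks, and 26.0, 26.1 and 25.3 after 5 weeks. Both genes lay below TAA without overlap at both times, by log2 changes of -0.24 and -0.18 for Stat2 and -0.22 and -0.33 for Irf9, and neither was called. Irf7, the factor that amplifies interferon alpha transcription, was at 57.2, 51.6 and 58.7 CPM in TAA, 53.1, 82.9 and 64.1 after 2 weeks, and 41.5, 64.2 and 58.5 after 5 weeks. Its ranges overlapped at both times, with log2 changes of 0.26 ± 0.20 and -0.03 ± 0.20.

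The 5 nucleic acid sensors were all below TAA without overlap after 2 weeks, beside 16.3% of all genes. Only 2 were after 5 weeks, beside 13.4%. Ifih1 encodes MDA5, the sensor of long double-stranded RNA. Its level was 31.5, 32.3 and 25.2 CPM in TAA, 17.9, 13.6 and 23.3 after 2 weeks, and 39.8, 26.3 and 30.1 after 5 weeks. The 2-week libraries were thus the 3 lowest of the 9, at a log2 change of -0.70 ± 0.22 (adjusted p = 0.0997), while after 5 weeks the change was 0.11 ± 0.22. Ddx58, which encodes RIG-I, and Eif2ak2, which encodes the kinase PKR, had log2 changes of -0.45 and -0.71 after 2 weeks and -0.12 and -0.15 after 5 weeks. Zbp1, a sensor of Z-form nucleic acid, was at 11.9, 12 and 11.3 CPM in TAA, 8.60, 9.69 and 9.24 after 2 weeks, and 7.22, 8.99 and 6.87 after 5 weeks. Its 6 treated libraries were all below the TAA libraries, with log2 changes of -0.35 ± 0.14 and -0.61 ± 0.14 (adjusted p = 0.170 and 0.0667). Dhx58, which encodes the RIG-I relative LGP2, had log2 changes of -0.65 and -0.59 with no overlap at either time.

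All 4 IFIT genes lay below TAA without overlap at both times and were not called. Of all genes, 16.3% and 13.4% lay below in this way. Ifit3 and Ifit3b, 98.0% identical, are not independent of each other. Ifit1 was at 8.58, 8.84 and 7.53 CPM in TAA, 3.49, 5.44 and 5.37 after 2 weeks, and 4.85, 6.05 and 5.77 after 5 weeks. Its log2 change was -0.80 ± 0.20 (adjusted p = 0.0558) and -0.58 ± 0.20 (adjusted p = 0.153). Ifit2 was at 9.74, 10.4 and 6.84 CPM in TAA, 2.38, 5.51 and 4.78 after 2 weeks, and 6.30, 6.22 and 6.27 after 5 weeks. Its lowest value came from replicate 17, and the 5-week libraries lay between the other groups without overlapping either. Ifit3 and Ifit3b had log2 changes of -0.71 and -0.77 after 2 weeks and -0.53 each after 5 weeks, with adjusted p from 0.129 to 0.311.

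The OAS enzymes make oligoadenylates that activate RNase L, and OASL1 is a relative without that activity that is known to restrain translation of Irf7 mRNA. Oasl1 lies on chromosome 5 from 114923240 to 114937911 (mm10). Its level was 39.8, 44.6 and 53.3 CPM in TAA, 22.2, 28.2 and 27.1 after 2 weeks, and 16.5, 27 and 17.4 after 5 weeks. All 6 treated libraries were below all TAA libraries. Oasl1 fell 2.26-fold after 5 weeks, a log2 change of -1.18 ± 0.20 (adjusted p = 0.0406), and after 2 weeks the change was -0.83 ± 0.20 (adjusted p = 0.0556). The 5-week call held in 9 of 21 alternatives, with log2 changes from -1.44 to -1.05 and adjusted p from 1.98e-05 to 0.165. It was lost in 8 of the 9 fits that left out a library, all but the fit without replicate 27, in the fit of only the 2 groups compared (-1.19, adjusted p = 0.0854), and in the 3 fits without 2 or all of replicates 17, 18 and 23.

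Oasl2 was at 21.1, 15.4 and 16.5 CPM in TAA, 7.01, 15.3 and 9 after 2 weeks, and 6.20, 10.2 and 9.87 after 5 weeks. All 6 treated libraries lay below TAA, replicate 18 only just, with log2 changes of -0.76 ± 0.29 and -1.01 ± 0.29 (adjusted p = 0.161 and 0.113). Oas1a (-0.37 and -0.72), Oas2 (-0.40 and -0.59) and Oas3 (-0.73 and -0.73) overlapped with TAA after 2 weeks, and of them only Oas1a lay apart after 5 weeks. Oas1g was at 6.09, 3.69 and 3.21 CPM in TAA, 3.02, 5.68 and 4.51 after 2 weeks, and 1.99, 2.63 and 2.48 after 5 weeks. It was the only member whose 5-week libraries lay below both TAA and the 2-week libraries without overlap, and it was not called in either comparison (adjusted p = 0.160 and 0.177).

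Among membrane and nucleotide effectors, Bst2 and Mx1 mark the extremes. Bst2 encodes tetherin, which holds budding virus at the cell surface. Bst2 (chromosome 8, 71534262 to 71537437, mm10) was at 156, 135 and 165 CPM in TAA, 265, 273 and 215 after 2 weeks, and 153, 216 and 183 after 5 weeks. All 2-week libraries were above all TAA libraries, and the 5-week range overlapped with TAA. Bst2 rose 1.65-fold after 2 weeks, a log2 change of 0.72 ± 0.16 (adjusted p = 0.0416), while after 5 weeks the change was 0.27 ± 0.16 (adjusted p = 0.379). The 2-week call held in 7 of 21 alternatives (adjusted p from 0.00119 to 0.307). It was lost on leaving out any of replicates 12, 13, 14, 17, 18 or 28, and the change shrank to 0.39 with library totals as scaling and to 0.31 (adjusted p = 0.0742) when each library's trend over transcript length was removed. In FPKM, Bst2 stood at 222 ± 16.8 in TAA and 290 ± 25 after 2 weeks.

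Mx1, a gene of the dynamin-like GTPase family, was at 4.81, 4.23 and 4.51 CPM in TAA, 1.3, 1.90 and 2.88 after 2 weeks, and 1.93, 2.49 and 1.74 after 5 weeks. These are RNA levels, and whether a working protein is made was not tested. All 6 treated libraries were below TAA, and the log2 changes were -1.15 ± 0.28 (adjusted p = 0.0542) and -1.14 ± 0.28 (adjusted p = 0.0750). Its neighbour Mx2 had log2 changes of -0.05 and -0.38. Rsad2, which encodes viperin, was at 5.57, 6.38 and 4.49 CPM in TAA, 2.77, 3.18 and 3.45 after 2 weeks, and 5.14, 3.38 and 3.18 after 5 weeks, so that replicate 23 lay inside the TAA range. Its change after 2 weeks was -0.81 ± 0.23 (adjusted p = 0.0781). Rtp4 was at 17.1, 16.1 and 17.9 CPM in TAA, 9.49, 14.4 and 12.4 after 2 weeks, and 11.0, 11.2 and 10.6 after 5 weeks, with no overlap and log2 changes of -0.49 and -0.64 (adjusted p = 0.101 and 0.0727). Cmpk2, the nucleotide kinase beside Rsad2, lay below TAA at both times (-0.48 and -0.61), and Samd9l did after 2 weeks (-0.56).

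Isg15 encodes the ubiquitin-like protein that is joined to other proteins in the response. Its level was 14.3, 13.6 and 13.9 CPM in TAA, 7.23, 10.2 and 8.45 after 2 weeks, and 5.89, 10.2 and 6.85 after 5 weeks. The TAA values were close together and all 6 treated values lay below them, with log2 changes of -0.69 ± 0.21 (adjusted p = 0.0927) and -0.87 ± 0.21 (adjusted p = 0.0723). Usp18, which removes ISG15 and restrains the receptor, had log2 changes of -0.32 and -0.07 with overlapping ranges. Herc6, the mouse ligase for ISG15, had -0.10 and 0.08. Lgals3bp, a secreted glycoprotein, was at 123, 113 and 114 CPM in TAA, 85.1, 109 and 86.3 after 2 weeks, and 92.1, 95.9 and 102 after 5 weeks, below TAA without overlap at both times (-0.32 and -0.27), and not called.

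Parp9, Dtx3l and Parp14, neighbours whose proteins act on ADP-ribose and ubiquitin, overlapped with TAA at both times, with log2 changes from -0.30 to 0.21. Trim30a, a ubiquitin ligase family member, lay below TAA without overlap at both times (-0.88 and -0.57). Xaf1 had -0.09 and -0.56 with overlap. Of the IFI genes, Ifi27 and Ifi35 had changes of 0.30 and 0.34 after 2 weeks and -0.02 and -0.04 after 5 weeks. Ifi27l2a was at 32.2, 25.2 and 34.5 CPM in TAA, 13.3, 29.9 and 25.4 after 2 weeks, and 7.75, 24.7 and 14.2 after 5 weeks. Only its 5-week libraries lay apart from TAA, at a log2 change of -0.98 ± 0.40 (adjusted p = 0.218), and its SE was the largest of the 38 in that comparison. Ifi44 likewise lay apart only after 5 weeks (-0.85, against -0.48 after 2 weeks).

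**Figure D3:**
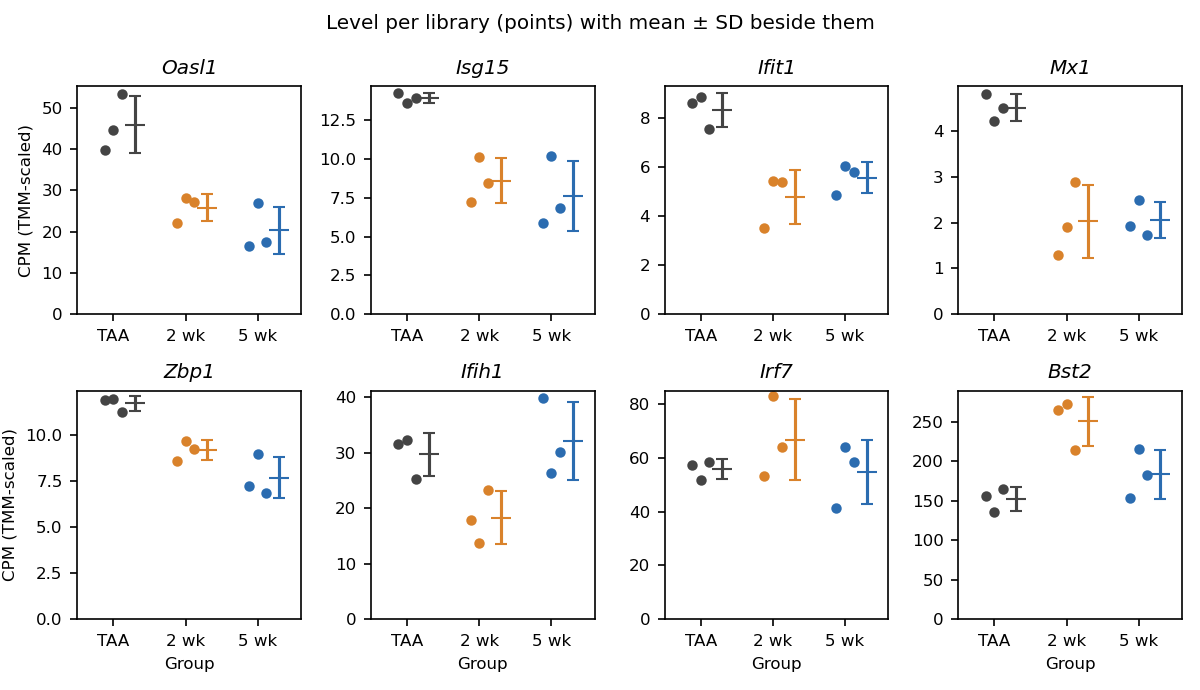
Points give the TMM-scaled CPM (y axis, from 0) of 8 genes in each library, with the mean and SD beside them, for TAA, 2 weeks and 5 weeks of rhCYGB (x axis). Oasl1, Isg15, Ifit1, Mx1 and Zbp1 are below TAA in all 6 treated libraries, Ifih1 after 2 weeks only, Irf7 overlaps throughout, and Bst2 is higher after 2 weeks.

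The 5-week and 2-week groups were compared directly. Of the 38 members edgeR called none, beside 0.0204% of all tested genes. At an unadjusted p under 0.05, 3 were lower, beside 10.5% of all genes, and 2 higher after 5 weeks, beside 12.7%. The median change was 0.01, and -0.01 over all genes. The change was below 0 for 18 members, against 51.1% of all genes. Ifih1 and Ifit2 were higher after 5 weeks without overlap, beside 10.9% of all genes, and Oas1g was lower, beside 10.2%. The change was 0.81 ± 0.22 for Ifih1 (adjusted p = 0.158), 0.56 ± 0.28 for Ifit2 (adjusted p = 0.250) and -0.90 ± 0.30 for Oas1g (adjusted p = 0.177). DESeq2 called Ifih1 alone (0.83, adjusted p = 0.0203), 2.63% of the members beside 5.35% of all genes, and limma on FPKM called none. Without replicate 27, edgeR called Ifih1 (0.94) as higher and Bst2 (-0.58) and Oasl1 (-0.60) as lower after 5 weeks, which is 7.89% of the members beside 12.6% of all genes in that fit, so the members' share was below the background. Without replicate 17 the median moved to -0.20.

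The 3 libraries of a group did not carry the pattern equally. Replicate 17 was the lowest of the 9 libraries for 20 of the 38 genes, against 13% of all tested genes, and its median difference from the TAA mean was -0.80 on the log2 scale. The medians were -0.21 in replicate 18 and -0.34 in replicate 19. After 5 weeks they were -0.47, -0.33 and -0.47 in replicates 23, 27 and 28. Replicate 23 was the lowest for 11 members but also the highest for 5, and it held the lowest value for 26.9% of all genes. Each of the 6 treated libraries was below the TAA mean for between 29 and 35 of the 38 genes. The TAA libraries were below their own mean for 6, 16 and 28 genes in replicates 12, 13 and 14. By this count replicate 14 was thus close to the treated libraries, with a median difference of -0.14. Without replicates 17, 18 and 23 the medians were -0.35 after 2 weeks and -0.43 after 5 weeks, and no member was called.

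Transcript length moved with the changes. Over all 14731 genes, Spearman's rho between length and log2 change was -0.42 after 2 weeks, 0.05 after 5 weeks and 0.47 between the treated groups. Over the 38 members, which share the same libraries, it was -0.25, 0.25 and 0.65, given as a description across genes. The 19 members shorter than the median length of 2585 bases had median changes of -0.32 after 2 weeks and -0.53 after 5 weeks, and the 19 longer ones had -0.56 and -0.49. Between 2 and 5 weeks the shorter ones had -0.29 and the longer ones 0.22. Bst2 (766 bases) is among the shortest members and Ifih1 (5512 bases) among the longest. With the length trend of each library removed, the medians stayed at -0.45 and -0.53. The test then called Isg15 (-1.11), Oasl1 (-0.90), Zbp1, Ifit1 and Rtp4 as lower after 2 weeks, and Oasl1 (-1.18), Isg15 (-0.92) and Zbp1 (-0.61) after 5 weeks, and Bst2 was not called. These are 13.2% and 7.89% of the members, beside 4.01% and 3.82% of all genes called in the same fit.

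**Figure D4:**
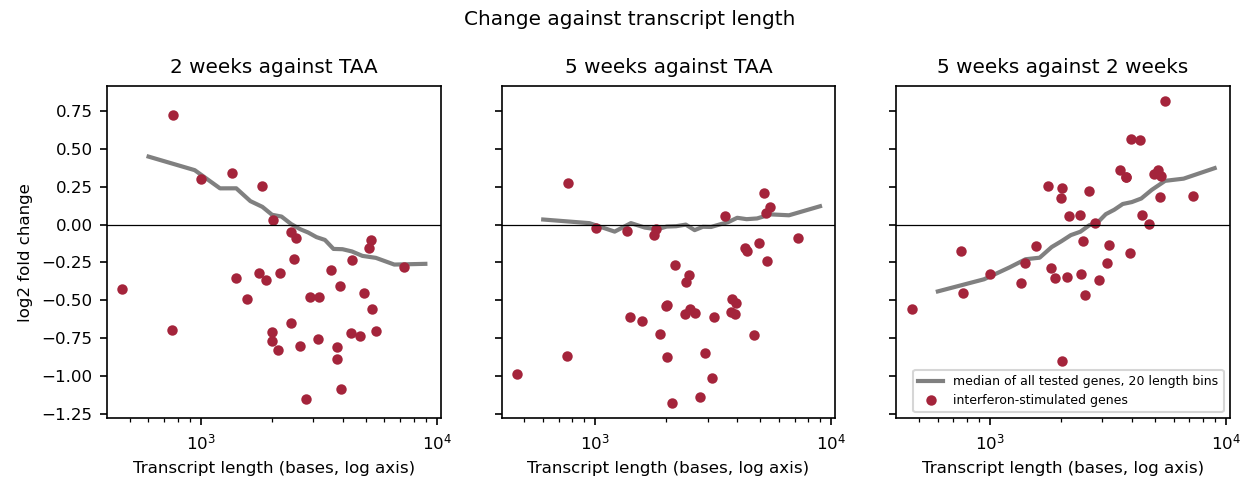
The log2 fold change (y axis) is plotted against transcript length in bases (x axis, log scale) for the 38 genes (points), beside the median of all tested genes in 20 length bins (line), for the 3 comparisons. The line slopes down after 2 weeks, is nearly flat after 5 weeks and slopes up between them, and most points lie below the line in the first 2 panels.

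Further genes of the pathway were taken from lists. Among 20 tested genes that lead to interferon production edgeR called none against TAA. At an unadjusted p under 0.05, 4 of the 20 were lower and 1 higher after 2 weeks, beside 10.5% and 12.9% of all genes. After 5 weeks 3 were lower and 1 higher, beside 9.62% and 9.59%. Of 48 other listed interferon-stimulated genes 44 were tested, with medians of -0.23 and -0.22. Of these, 20.5% and 31.8% lay below TAA without overlap, beside 16.3% and 13.4% of all genes, and 1 of 44 was called, beside 1.34% of all genes called lower after 2 weeks. Slfn8, a Schlafen family gene, fell after 2 weeks from 4.67 ± 0.953 to 2.31 ± 0.376 CPM (log2 change -1.01 ± 0.23, adjusted p = 0.0473). After 5 weeks none was called by edgeR, and 13 (29.5%) were lower and none higher at an unadjusted p under 0.05, beside 9.62% and 9.59%.

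Targets of interferon gamma and antigen presentation genes had medians above 0. Of 37 tested, 4 rose after 2 weeks and none fell, beside 1.98% and 1.34% of all genes, with a median of 0.21. Cxcl9, a chemokine for T cells, had 3.56 ± 0.192 CPM in TAA and 15.0 ± 5.75 after 2 weeks. The class I genes H2-K1 and H2-D1 rose from 683 ± 60.5 to 1245 ± 76.1 CPM and from 421 ± 1.38 to 641 ± 17.7 CPM. Their shared light chain B2m rose from 1163 ± 62.4 to 1782 ± 84.9 CPM. Their adjusted p ran from 0.0235 to 0.0339. Whether these calls, and those of Slfn8 and the cell markers below, hold in the alternatives is not reported here. In the main fit, 488 of all tested genes were called after 2 weeks. Leaving out replicate 12, 13, 14, 17 or 18 left 31, 1, 2, 5 and 3 genes called, in that order. Leaving out replicate 19, 23, 27 or 28 left 368, 1095, 888 and 169. After 5 weeks edgeR called none of the 37, with 6 higher and 3 lower at an unadjusted p under 0.05, beside 9.59% and 9.62% of all genes, and a median of 0.12.

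Summed markers of some cell types differed between the groups and those of others overlapped. Summed over 10 monocyte and macrophage markers the level was between 441 and 532 CPM in TAA, between 291 and 451 after 2 weeks and between 249 and 312 after 5 weeks. All 10 had log2 changes below 0 at both times, Gpnmb and Cx3cr1 fell after 2 weeks, Cx3cr1 fell after 5 weeks, and no marker was at 0 in all libraries. The sums overlapped with TAA after 2 weeks and lay below it after 5 weeks. Kupffer cell markers summed to between 409 and 484 CPM in TAA, between 451 and 627 after 2 weeks and between 450 and 614 after 5 weeks, overlapping with TAA, and Clec4f alone was called, higher after 2 weeks. T and NK cell markers summed to between 5.39 and 8.47 CPM in TAA, between 16.5 and 34.3 after 2 weeks and between 6.40 and 25.8 after 5 weeks, and Cd8b1, Nkg7 and Ccl5 rose after 2 weeks. The T and NK sums lay above TAA after 2 weeks and overlapped with it after 5 weeks. Markers of plasmacytoid dendritic cells, the main interferon alpha source, summed to 79.4 to 97.1, 80.4 to 105 and 40.9 to 87.2 CPM in the same order, overlapping and with none called. The defining Siglech stood at 0.918 ± 0.106 CPM in TAA. This sum therefore rests almost wholly on the other listed genes and says little about the number of these cells.

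Stellate cell and myofibroblast markers summed to between 1350 and 2040 CPM in TAA, between 509 and 904 after 2 weeks and between 390 and 842 after 5 weeks, below TAA at both times. Acta2, Col1a2 and Lum fell after 2 weeks, and Acta2 and Col1a2 fell after 5 weeks. Hepatocyte markers summed to 107000 to 121000, 118000 to 158000 and 119000 to 158000 CPM, overlapping, and Cyp2e1 rose after 5 weeks. Of the 10 hepatocyte markers, 9 had changes above 0 after 2 weeks and 8 after 5 weeks. Above TAA without overlap lay 5 and 3 of the 10, beside 17.3% and 11.6% of all genes. The hepatocyte sums are those of liver tissue, as labelled. The sums also overlapped between groups for neutrophil, B cell, cholangiocyte and sinusoidal endothelial markers. After 5 weeks all 7 tested neutrophil markers (median log2 change -0.945) and all 7 tested cholangiocyte markers (median -0.72) had changes below 0. None of these was called or lay apart from TAA. The part of these cell types in the levels of the 38 genes was not tested.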

How the data were processed

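RNA was measured in 9 mouse liver libraries. HISAT2 2.1.0, StringTie 1.3.4d, FastQC 0.11.7 and the build mm10 are listed, without roles, in the submitters' processing notes. The authors deposited estimated counts per gene as whole numbers, per the file headers, and how they were made is not given in the sources used here. The FPKM values deposited by the authors served for levels between genes and for an alternative. Groups came from the sample titles. Genes passing filterByExpr (minimum count 10, minimum total 15) entered edgeR 4.0.16 (R 4.3.3) with TMM scaling, in a single fit of 9 libraries and 3 groups with Benjamini-Hochberg adjustment. The script was tested on simulated data. Alternatives (21) used DESeq2 1.42.0, limma 3.58.1 on log2(FPKM + 1) or log2(FPKM + 0.1), other scaling, filters or samples, and offsets for transcript length. Of these, 3 were chosen after seeing the data (2 or all of replicates 17, 18 and 23 left out). All members are described, and of other lists the called genes, up to 6 a list, with chosen receptor and ligand genes, 1 of which is not reported here. The members and lists were chosen with earlier results of these data known. Intervals of 0 counts cover counting error only.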

Additional observations from a re-analysis of the deposited data

How the results depend on the processing

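The median change of the 38 genes kept its sign in all 21 alternatives after 2 weeks (-0.75 to -0.30) and after 5 weeks (-0.75 to -0.43), while the calls did not hold. Members with a change below 0 in every alternative numbered 29 after 2 weeks and 26 after 5 weeks, and Bst2 was the only one above 0 in every alternative. Counts of called members are given with the share of all genes called in the same fit. After 2 weeks the count was 1 (3.31%), and became 10 with DESeq2 (11.6%), 18 with library totals (11.7%), 0 with the upper quartile (2.21%), 20 with limma on log2(FPKM + 1) and log2(FPKM + 0.1) (13.5% and 11.1%), 6 with only the groups compared (7.04%), 5 with the length trend removed (4.01%), 0 to 7 leaving out a library (0.00669% to 7.32%), and 0 with replicates 17 and 23 (0.436%) or all of 17, 18 and 23 left out (0.0785%). With library totals 1612 of all 1722 calls were lower, against 197 of 488. After 5 weeks it was 1 (1.29%), and became 6 with DESeq2 (8.06%), 5 with library totals (3.42%), 8 and 6 with limma on the FPKM scales (6.8% and 4.7%), 0 with only the groups compared (0.00688%), 3 with the length trend removed (3.82%), 0 to 3 leaving out a library (0.0% to 1.6%), and 0 with 2 or all of those libraries left out (at most 0.0458%). Between 5 and 2 weeks it was 0 (0.0204%), and became 1 with DESeq2 (5.35%) and 0 to 3 leaving out a library (0.00667% to 12.6%).

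Library totals moved the median of the members to -0.75 and -0.75, with that of all genes at -0.36 and -0.21, and log2(FPKM + 0.1) moved it to -0.74 and -0.70, with all genes at -0.33 and -0.21. Relative to all genes the members thus stayed about as low in these settings. With log2(FPKM + 1) the medians of the members were -0.59 and -0.48, with all genes at -0.20 and -0.13. After 5 weeks the members thus lay closer to all genes than in the main fit (-0.53, with all genes at 0.01). Between 5 and 2 weeks the median ran from -0.20 to 0.14 leaving out a library, and was -0.18 without replicates 17 and 23. Some fits held fewer samples or tested a different number of genes. The cause of the differences between fits was not tested. Fits that leave a group with 1 library assume that it varies like the others. No paired analysis was possible because the groups share no replicate number. Genes at a few CPM, such as Oas3 and Ifi44, rest on fewer reads than Bst2 or Lgals3bp.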

Other observations

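The estimated counts of Oas2 fell mostly on a different transcript from library to library. Oas2 has 2 transcripts in the deposited table, of 3864 and 3957 bases. The shorter took 72.6%, 75.9% and 0.0% of the gene's estimated reads in the TAA libraries, 0.0%, 99.3% and 0.813% in replicates 17, 18 and 19, and 0.0%, 0.0% and 99.5% in replicates 23, 27 and 28, so libraries of the same group stood at opposite ends. The values above use the gene's count over both transcripts. Zbp1, with transcripts of 1988 and 781 bases, was split more evenly, with 39.1% to 63.2% on the longer. Shifts within a group were also seen in Irf9 and Oas1g. The 2545-base transcript of Irf9 took 33.0%, 43.2% and 1.06% in the TAA libraries and 25.7%, 73.9% and 54.0% in replicates 17, 18 and 19. The 2069-base transcript of Oas1g took 36.3%, 27.5% and 0.0% in the TAA libraries.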
